A study of Mus musculus with 18 samples.

Results

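Heparan sulfate is built and edited by a small set of enzymes, and 9 of their genes were followed here through muscle injury in satellite cells, the resident stem cells of skeletal muscle, from wild type and Sdc4-/- mice. The members were chosen by name: Ext1, Ext2, Ndst1, Ndst2, Hs2st1, Hs6st1, Hs6st2, Sulf1 and Sulf2, each with every probe set that the platform annotation gives to that symbol alone. Of these, 8 genes had 21 probe sets among the 45101 on the array, where 18194 gene symbols have a probe set of their own. No probe set of Ndst1 was in the annotation used, and it was not analysed here. Wild type animals were C57Bl/6 x DBA2 (B6D2F1/J) and Sdc4-/- animals, which carry a homozygous deletion of syndecan-4, were C57Bl/6, so genotype and strain background cannot be told apart. All were females, aged 3 to 6 months by the labels and 3 months by the study's methods for the sorted cells. Cells came from uninjured tibialis anterior muscle or from muscle 12 h or 48 h after injection of barium chloride, a salt that kills muscle fibres, and were sorted on syndecan-3 immunoreactivity alone. Each of the 6 groups held 3 arrays, each made with RNA of 5000 cell equivalents, and 1 wild type array from uninjured muscle was left out, as the study did, which leaves 2 arrays in that group and 17 in all.

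Heparan sulfate is a long sugar chain carried by syndecans, glypicans and perlecan. Ext1 and Ext2 form the copolymerase that lengthens the chain. Ndst1 and Ndst2 replace acetyl by sulfate groups on its glucosamine, which opens the chain to later steps, then Hs2st1 adds sulfate to the uronic acid and Hs6st1 and Hs6st2 add it at another position of glucosamine. Sulf1 and Sulf2 are endosulfatases that work outside the cell and remove sulfate from that same position. The resulting pattern sets how the chain binds fibroblast growth factors, hepatocyte growth factor and Wnt ligands, all of which act on satellite cells.

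The values are log2 intensities after GCRMA normalization, a method that models the background of each probe. The arrays come without detection calls, so the level at which olfactory receptor genes lie was used as a mark of background: the 95th percentile of their 44 probe sets was 3.56 over the 17 arrays, and their median was 2.42. On single wild type 12 h arrays the percentile was 3.52 to 4.29, the highest of any group. Only 9 of the 21 probe sets, from 5 genes, had a group mean above 3.56, and 12 stayed under it in all 6 groups. In wild type cells the number above it was 5 in uninjured muscle, 2 at 12 h and 4 at 48 h, and it was 8, 4 and 5 in Sdc4-/- cells. A group mean under that level gives only an upper limit for the transcript, so the size of a change into it is not a measured fold.

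Arrays differed in ways that touch these genes. In wild type 12 h samples 2832 to 3982 probe sets exceeded a log2 value of 5, against 5076 to 7864 in the other groups, and the mean of 18 hybridization control probe sets was 13.54 to 14.30 against 7.86 to 12.50 elsewhere. Their part in the 12 h values was not tested. The left-out wild type array had 4512 such probe sets and a control mean of 12.80. Pearson correlations between the arrays used were 0.66 to 0.75 in the wild type 12 h group and 0.88 to 0.97 within the other groups. The left-out array had 0.74 and 0.78 with the others of its group. The 3' Actb control probe set read 3.98 to 11.81 on wild type 12 h arrays and 11.57 to 13.38 elsewhere. The 3' Gapdh control read 4.64 to 9.77 and 7.73 to 10.96, so wild type 12 h arrays were the least alike. Satellite cell markers averaged 4.66 to 4.74 in wild type cells from uninjured muscle and 3.40 to 4.30 in the remaining 5 groups. Pax7, the defining transcription factor of satellite cells, was above background in wild type cells from uninjured muscle, with a mean of 4.87, and lay between 2.40 and 2.60 in the other 5 group means. Myf5, Chodl and Itga7 were highest in that group too, at means of 4.71, 5.44 and 3.70. Other markers of the list were not. The sorting marker Sdc3 had means of 5.50, 4.78 and 5.92 in wild type cells and 6.23, 5.99 and 6.79 in Sdc4-/- cells. Cdh15 and Vcam1 were highest in wild type cells at 48 h, at 4.55 and 7.24. Markers of macrophages averaged 9.70 to 10.20 in Sdc4-/- cells from uninjured muscle, so the sorted populations held RNA of other cells. For Sdc4 itself, probe set 1417654_at had means of 2.50 to 2.55 in the Sdc4-/- groups and of 2.97, 2.94 and 6.56 in wild type cells at the 3 times. The other, 1448793_a_at, was at 4.20 to 4.92 in Sdc4-/- cells against 4.64, 4.03 and 7.66, and whether either lies in the deleted part was not checked. Fewer cells of a type and less RNA per cell cannot be told apart in these samples.

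Sulf2 and Hs2st1 had the widest called falls of the members at 12 h and the only called rises from 12 h to 48 h, and their promoters are shown for that reason. The sequences are RefSeq windows of GRCm38.p6, from 250 bases before to 50 after each start; 6 of the 9 members have such windows, 8 in all, and Sulf2 has 2 starts. Capitals mark GC boxes (GGGCGG) and E-boxes (CANNTG), searched on both strands, with no overlap between them. The Hs2st1 window is chr3:144570167-144570466 on the minus strand. Both Sulf2 windows are on the minus strand too, chr2:166155236-166155535 for the first line and chr2:166155634-166155933 for the second.
Hs2st1: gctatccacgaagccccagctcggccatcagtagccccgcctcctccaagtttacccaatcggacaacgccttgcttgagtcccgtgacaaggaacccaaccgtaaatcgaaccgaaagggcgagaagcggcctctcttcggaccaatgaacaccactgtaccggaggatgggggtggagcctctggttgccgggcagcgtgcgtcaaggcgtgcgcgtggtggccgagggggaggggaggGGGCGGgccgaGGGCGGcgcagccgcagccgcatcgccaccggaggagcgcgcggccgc
Sulf2 start 1: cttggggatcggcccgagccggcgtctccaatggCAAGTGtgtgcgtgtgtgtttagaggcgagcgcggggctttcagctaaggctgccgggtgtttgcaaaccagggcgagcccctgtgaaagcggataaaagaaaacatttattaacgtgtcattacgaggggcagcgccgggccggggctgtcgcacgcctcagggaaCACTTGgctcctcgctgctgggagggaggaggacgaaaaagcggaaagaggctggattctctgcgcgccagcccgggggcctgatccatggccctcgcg
Sulf2 start 2: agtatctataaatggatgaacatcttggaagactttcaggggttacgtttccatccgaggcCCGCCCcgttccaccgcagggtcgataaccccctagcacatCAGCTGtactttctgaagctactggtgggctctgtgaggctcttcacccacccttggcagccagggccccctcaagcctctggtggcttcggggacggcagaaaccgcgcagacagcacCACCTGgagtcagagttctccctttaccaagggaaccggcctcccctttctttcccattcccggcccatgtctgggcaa
The Hs2st1 window holds 2 GC boxes and 0 E-boxes. Of the Sulf2 windows, the first holds 0 GC boxes and 2 E-boxes and the second 1 GC box and 2 E-boxes. The AP-1 motif TGANTCA, searched in the same way, had 0 matches in each of the 3 windows. Among the 32851 promoter windows of the same length, 35.7% hold a GC box, 72.3% an E-box and 7.81% the AP-1 motif, so GC boxes and E-boxes of this kind are common letters and say nothing of binding.

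The endosulfatase Sulf2 showed the widest swings of the members. Its probe set 1447602_x_at was at 5.46 and 9.56 on the 2 wild type arrays from uninjured muscle, at 2.82, 2.12 and 2.90 at 12 h, and at 7.44, 4.34 and 7.15 at 48 h. Sdc4-/- cells had it at 10.19, 10.47 and 9.74 in uninjured muscle, at 3.34, 5.77 and 4.54 at 12 h, and at 8.69, 9.10 and 8.85 at 48 h. In both genotypes every 12 h array lay below every array from uninjured muscle and below every 48 h array, and the loss in Sdc4-/- cells left a level that was still above background in the group mean of 4.55. An x in a probe set name marks probes that can also match other transcripts, so part of this signal may belong to them.

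The 12 h fall of Sulf2 was 4.90 on the log2 scale in wild type cells (limma, adjusted p = 0.00489, SE 1.11) and 5.58 in Sdc4-/- cells, a 47.9-fold drop (limma, adjusted p = 0.00503, SE 0.99). Recovery from 12 h to 48 h was 3.69 in wild type cells (limma, adjusted p = 0.029) and 4.33 in Sdc4-/- cells (limma, adjusted p = 0.022). At 48 h the difference from uninjured muscle was -1.20 (limma, adjusted p = 0.511) and -1.25 (limma, adjusted p = 0.715), both short of the threshold. The change at 12 h differed between the genotypes by -0.68 with an SE of 1.49 (limma, adjusted p = 0.789), an interval too wide to show that they acted alike. The Sdc4-/- fall was called under every alternative and without any 1 of the 17 arrays. The wild type fall was lost when the second uninjured array was left out (-2.85, adjusted p = 0.0742), and when no other groups shared the estimate of the spread (adjusted p = 0.0849). The wild type rise was lost without WT 12 h replicate 2 or 3 or WT 48 h replicate 1 or 3, with adjusted p up to 0.119. Its Sdc4-/- counterpart was lost without 12 h replicate 1 or 3 or any of the 48 h arrays, with adjusted p up to 0.0945.

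**Figure D1:**
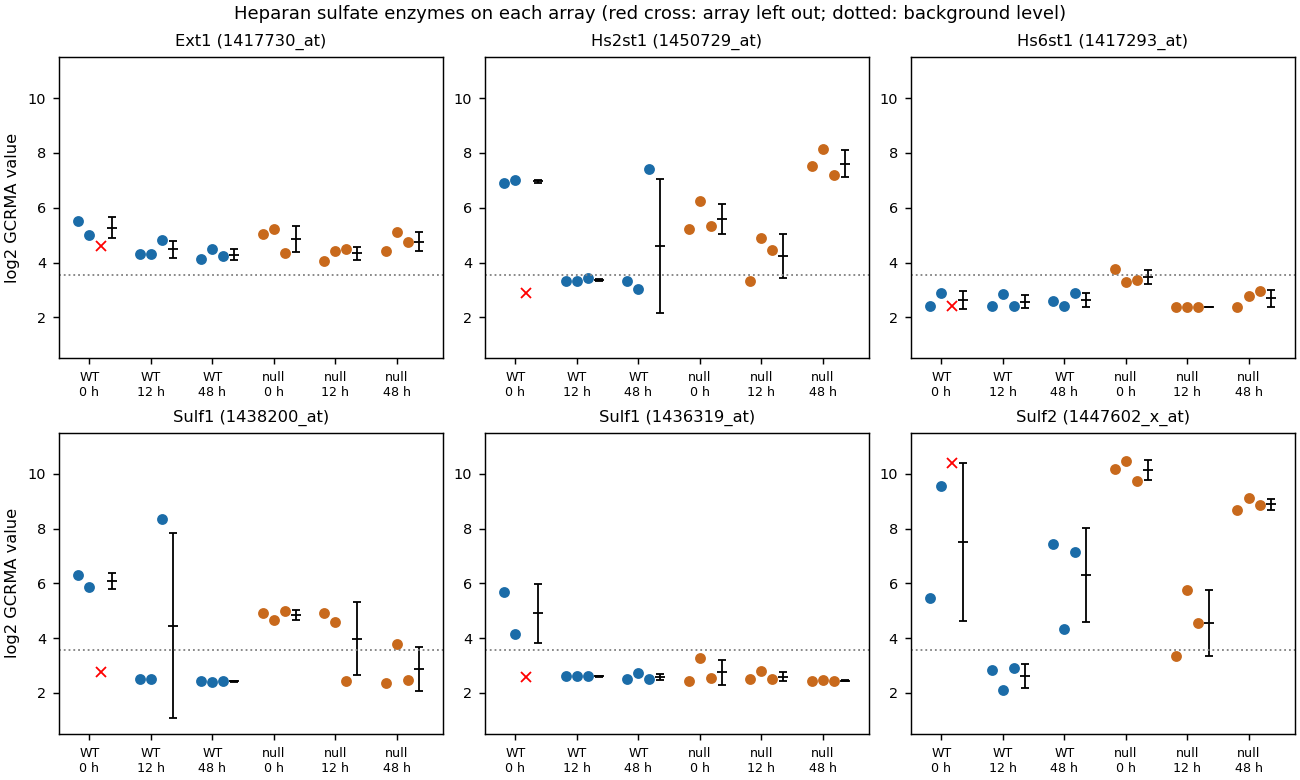
Log2 GCRMA value (vertical axis) on each array for 6 probe sets of Ext1, Hs2st1, Hs6st1, Sulf1 and Sulf2, by genotype (blue wild type, orange Sdc4-/-, written null) and hours after injury (0 h is uninjured); black marks are the mean and SD, the red cross is the left-out array and the dotted line is the background level of 3.56. Sulf2 was lowest at 12 h in both genotypes, with wild type arrays at 2.12 to 2.90 and Sdc4-/- arrays at 3.34 to 5.77.

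The other probe sets of Sulf2 were dimmer. At 1442408_at the Sdc4-/- arrays from uninjured muscle read 4.90, 3.91 and 5.60 and those at 12 h 3.53, 2.32 and 2.31, which do not overlap, yet the change of -2.08 missed the threshold (limma, adjusted p = 0.0888). The wild type arrays of that probe set lay at 2.99 and 2.66, then at 2.44, 2.35 and 2.40, then at 2.34, 5.21 and 4.59, with 2 of 3 arrays high at 48 h. At 1430388_a_at the Sdc4-/- arrays fell from 4.12, 3.26 and 3.24 to 2.65, 2.63 and 2.66 at 12 h, by 0.89 (limma, adjusted p = 0.0202), and to 2.64, 2.62 and 2.66 at 48 h, by 0.90 (limma, adjusted p = 0.0248). All 6 group means of this last probe set were under background, and leaving out Sdc4-/- 12 h replicate 1 or 2 lost the first of these calls, as leaving out any Sdc4-/- 48 h array lost the second (adjusted p up to 0.0611 and 0.0743). The Pearson correlation of 1447602_x_at with 1430388_a_at over the 17 arrays was 0.53 and with 1442408_at 0.40.

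Sulf1, the other endosulfatase, fell in wild type cells and was already low in Sdc4-/- cells at probe set 1436319_at. Wild type arrays from uninjured muscle read 5.67 and 4.14. At 12 h they read 2.63, 2.60 and 2.60 and at 48 h 2.51, 2.71 and 2.51. The Sdc4-/- values were 2.44, 3.27 and 2.55 in uninjured muscle, 2.50, 2.78 and 2.49 at 12 h and 2.44, 2.46 and 2.43 at 48 h. Only the 2 wild type arrays from uninjured muscle stood above background.

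The wild type fall at 1436319_at was 2.30 at 12 h (limma, adjusted p = 0.000327, SE 0.34) and 2.33 at 48 h (limma, adjusted p = 0.001, SE 0.34). Sdc4-/- cells from uninjured muscle were lower than wild type by 2.15 (limma, adjusted p = 0.00327). The changes differed between genotypes by 2.14 at 12 h (limma, adjusted p = 0.0111, SE 0.46) and by 2.02 at 48 h (limma, adjusted p = 0.0289, SE 0.46). These 5 calls share the same 2 wild type arrays, and the left-out array read 2.59: with all 18 arrays the 12 h fall was 1.53 (limma, adjusted p = 0.0528), the genotype difference in uninjured muscle was -1.38 (limma, adjusted p = 0.306), and none of the 5 was called. Fitting only the groups compared lost all 5 too, the 12 h fall at an adjusted p of 0.0534. Without WT uninjured replicate 1 the 48 h difference in change was 1.26 and not called (adjusted p = 0.0571), and leaving out any of 6 further arrays also lost that call, among them WT 48 h replicate 3, Sdc4-/- uninjured replicate 1 or 3 and each Sdc4-/- 48 h array.

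A second Sulf1 probe set, 1438200_at, was brighter and followed another course. It read 6.30 and 5.87 in wild type cells from uninjured muscle, 2.49, 2.49 and 8.35 at 12 h and 2.45, 2.40 and 2.45 at 48 h, with 1 of 3 arrays at 12 h far above the rest. The Sdc4-/- arrays read 4.92, 4.65 and 4.99, then 4.91, 4.58 and 2.44, then 2.35, 3.78 and 2.48. At 48 h the arrays of both genotypes lay below all those from uninjured muscle, by 3.65 in wild type cells (limma, adjusted p = 0.109) and by 1.98 in Sdc4-/- cells (limma, adjusted p = 0.562), neither past the threshold. The difference between genotypes seen at 1436319_at in uninjured muscle was -1.23 here (limma, adjusted p = 0.91). The third probe set, 1446416_at, stayed under background in every group mean, at 2.35 to 2.60.

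Markers of other cells moved with the endosulfatases in some groups and arrays and apart from them in others. The mean of 6 fibroblast and fibro-adipogenic progenitor markers was 7.68 and 8.41 on the wild type arrays from uninjured muscle and 3.18 on the left-out array, where both Sulf1 probe sets were low (2.59 and 2.76). It was 3.45 to 4.67 at 12 h and 3.08 to 3.63 at 48 h in wild type cells, and 4.81 to 6.64, 3.35 to 6.23 and 3.05 to 5.03 in Sdc4-/- cells. The wild type 12 h array with Sulf1 at 8.35 had a marker mean of 4.50, between those of its group. On the Sdc4-/- 12 h array where 1438200_at was at 2.44 the marker mean was 3.35, against 5.70 and 6.23 on the other two. Of these markers, decorin (Dcn) fell from a mean of 9.37 to 4.08 and 3.08 in wild type cells, whereas Pdgfra was at 5.78, 3.86 and 4.80 at the 3 times. Macrophage markers, 7 genes with Csf1r and Cd68 among them, averaged 5.94 and 8.84 in wild type cells from uninjured muscle, 3.37 to 4.46 at 12 h and 9.68 to 9.87 at 48 h, a course like that of Sulf2. Cx3cr1, also of that list, took another course, with wild type means of 3.76, 4.17 and 3.99. On the left-out array the macrophage mean was 9.10 and Sulf2 was 10.41. For Sdc4-/- cells the macrophage mean was 9.70 to 10.20, then 8.31 to 9.30, then 10.20 to 10.34. It was thus lower at 12 h, though above background, on the arrays where Sulf2 was at 3.34 to 5.77. From uninjured muscle to 12 h the means went from 14.15 to 12.25 for Csf1r, 8.52 to 6.36 for Adgre1 and 8.62 to 6.84 for Cd68. Mrc1 went from 11.52 to 10.09 and Lyz2 from 12.41 to 10.50, whereas Ptprc went from 10.64 to 11.29 and Cx3cr1 from 3.73 to 3.96. Above background were 7, 4 and 7 of the 7 macrophage markers in wild type cells at the 3 times and 7 at each time in Sdc4-/- cells, and 6, 5 and 1 of the 6 fibroblast markers in wild type against 5, 4 and 3 in Sdc4-/- cells. Endothelial markers averaged 5.34 to 6.80 in wild type cells from uninjured muscle and 2.84 to 4.96 in the other groups, pericyte and smooth muscle markers 8.03 to 9.31 and 4.16 to 7.80. Neutrophil markers reached 8.79 at the highest, in Sdc4-/- cells at 12 h, and muscle fibre markers 6.40 in the same group. The part of these cells in the Sulf1 and Sulf2 values was not tested.

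**Figure D2:**
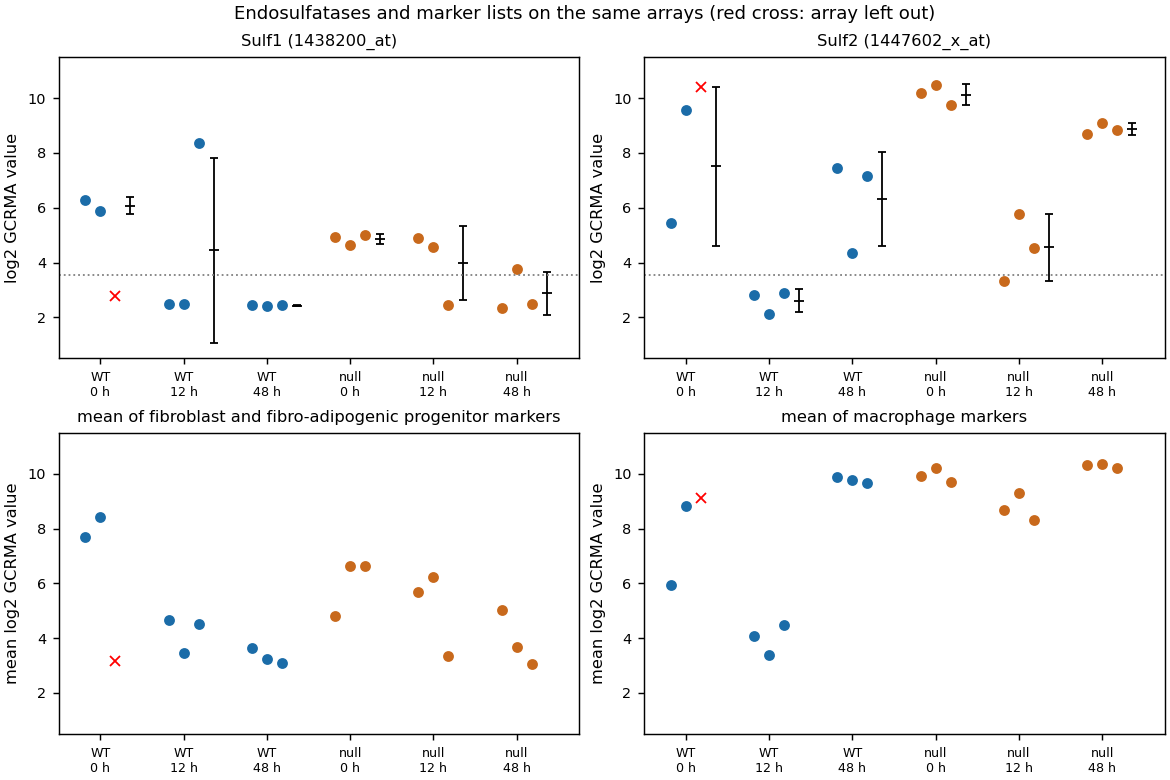
Upper panels: log2 GCRMA value of Sulf1 (1438200_at) and Sulf2 (1447602_x_at) on each array, with mean and SD in black and the background level of 3.56 dotted. Lower panels: mean log2 value of the fibroblast and the macrophage markers on the same arrays (blue wild type, orange Sdc4-/-, written null; 0 h is uninjured; red cross, left-out array). In Sdc4-/- cells at 12 h Sulf2 read 3.34 to 5.77 and macrophage markers averaged 8.31 to 9.30, both below their arrays from uninjured muscle.

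Hs2st1, the sulfotransferase of the uronic acid, had a called fall at 12 h in both genotypes at 1422739_at, and in 1 genotype each at 2 further probe sets. A fall without a call is not shown to be absent. The brightest, 1450729_at, read 6.92 and 7.01 in wild type cells from uninjured muscle, 3.31, 3.34 and 3.42 at 12 h and 3.34, 3.02 and 7.42 at 48 h. The Sdc4-/- arrays were at 5.23, 6.23 and 5.34, then 3.34, 4.90 and 4.46, then 7.52, 8.14 and 7.18. The 48 h arrays of Sdc4-/- cells lay above all of their 12 h and uninjured arrays, whereas 1 of 3 wild type arrays was high at 48 h.

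At 1450729_at the wild type fall at 12 h was 3.61 (limma, adjusted p = 0.0139, SE 0.99) and the Sdc4-/- difference was -1.37 (limma, adjusted p = 0.423). The genotypes' 12 h changes differed by 2.24 (limma, adjusted p = 0.298), so a difference in response was not shown. Sdc4-/- cells rose by 3.38 from 12 h to 48 h (limma, adjusted p = 0.0434). At 48 h Sdc4-/- cells stood 3.02 above wild type (limma, adjusted p = 0.0737), and the 48 h changes differed by 4.39 (limma, adjusted p = 0.0928), both short of the threshold. The left-out wild type array was at 2.87, unlike the other two of its group, and with it the wild type fall was 2.24 (limma, adjusted p = 0.169). Leaving out WT uninjured replicate 1 or 2 also lost that call, with adjusted p of 0.0672 and 0.0698. The Sdc4-/- rise was lost without any 1 of 14 of the 17 arrays, all but those of wild type cells at 48 h, with adjusted p up to 0.157.

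At 1422739_at the Sdc4-/- arrays fell from 3.79, 4.77 and 3.62 to 2.41, 2.44 and 2.48 at 12 h, by 1.62 (limma, adjusted p = 0.0102, SE 0.33), and to 2.44, 2.46 and 2.66 at 48 h, by 1.54 (limma, adjusted p = 0.0169). The 48 h call was lost without Sdc4-/- 48 h replicate 1 or 2 (adjusted p up to 0.0564). Wild type arrays went from 4.30 and 2.82 to 2.50, 2.52 and 2.51, by -1.05 (limma, adjusted p = 0.0395), a call lost in 15 of 25 alternatives: without WT uninjured replicate 1 the change was -0.31 (limma, adjusted p = 0.501), and leaving out any 1 of 9 further arrays, each WT 12 h array among them, gave an adjusted p of up to 0.0718. At 1440905_at the Sdc4-/- arrays fell from 4.50, 4.31 and 5.52 to 3.26, 2.98 and 3.39, by 1.57 (limma, adjusted p = 0.0344), while the wild type arrays were at 3.35 and 3.44 before and 3.05 to 3.51 after. That call was lost without Sdc4-/- uninjured replicate 1 or 3 or any Sdc4-/- 12 h array (adjusted p up to 0.11). The fourth probe set, 1450730_at, stayed under background in all group means, and the correlations of 1450729_at with the other three were 0.27, 0.29 and 0.08 over the 17 arrays.

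Ext1, the catalytic partner of the copolymerase, was above the pooled background level of 3.56 in all 6 groups at 1417730_at and was the sole probe set of the 21 for which that held. It read 5.53 and 5.0 in wild type cells from uninjured muscle, 4.30, 4.30 and 4.82 at 12 h and 4.12, 4.50 and 4.25 at 48 h. The lowest wild type 12 h value, 4.30, was close to the top of that group's own background range, 3.52 to 4.29. The Sdc4-/- arrays read 5.03, 5.22 and 4.34, then 4.05, 4.43 and 4.51, then 4.41, 5.11 and 4.75, and the groups overlap. The wild type changes were -0.79 at 12 h (limma, adjusted p = 0.0483, SE 0.29) and -0.97 at 48 h (limma, adjusted p = 0.0459, SE 0.29), both close to the threshold. The first was lost without any 1 of 12 of the 17 arrays and the second without any 1 of 10, with adjusted p up to 0.307 and 0.32, and a further quantile normalization turned the 12 h change to 0.37 (limma, adjusted p = 0.429). The Sdc4-/- changes were -0.53 (limma, adjusted p = 0.278) and -0.11 (limma, adjusted p = 1).

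Ext2, which Ext1 needs for its activity and for reaching the Golgi, was under background in every group mean at its 3 probe sets. At 1447319_at wild type arrays read 2.65 and 3.01 in uninjured muscle and 3.18, 3.39 and 3.87 at 12 h, a change of 0.65 past the threshold (limma, adjusted p = 0.0144) between values that are all near background. The left-out array read 4.07, higher than all of these, and with it the change was 0.24 (limma, adjusted p = 0.557). Leaving out WT uninjured replicate 1 lost the call too (0.47, adjusted p = 0.146).

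Ndst2, one of the enzymes that put sulfate on the nitrogen of glucosamine, has a single probe set, 1417931_at. Wild type arrays lay between 2.50 and 2.98 at all times. Sdc4-/- arrays split within groups, at 2.51, 4.66 and 4.21 in uninjured muscle, 2.47, 2.82 and 2.51 at 12 h and 4.42, 3.83 and 2.46 at 48 h. None of its 11 comparisons passed the test, and the 12 h change in Sdc4-/- cells was -1.19 (limma, adjusted p = 0.214).

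The 6-O-sulfotransferases were near background. Hs6st1 has 1 probe set, 1417293_at, which read 3.78, 3.29 and 3.36 in Sdc4-/- cells from uninjured muscle against 2.40 and 2.87 in wild type. It then read 2.38, 2.38 and 2.39 at 12 h and 2.36, 2.77 and 2.97 at 48 h in Sdc4-/- cells, a fall of 1.09 (limma, adjusted p = 0.00541, SE 0.20) and of 0.77 (limma, adjusted p = 0.0445). Wild type cells changed by -0.07 at 12 h (limma, adjusted p = 0.823), and the genotypes' 12 h changes differed by -1.02 (limma, adjusted p = 0.044). The 12 h fall was called under every alternative, but 1 of the arrays it fell from was above 3.56 and none of the groups' means was. The 48 h fall was lost without any 1 of 11 arrays and the difference between genotypes without any 1 of 9, with adjusted p up to 0.164 and 0.192. Hs6st2 stayed under background in every group mean at its 4 probe sets, with single arrays reaching 3.63. At 1420939_at it rose from 2.58 and 2.53 to 2.78, 3.00 and 2.93 in wild type cells at 12 h, by 0.35 (limma, adjusted p = 0.00181), and Sdc4-/- cells were 0.21 lower at 12 h (limma, adjusted p = 0.0287), differences within the background range. The second of these was lost without WT 12 h replicate 2 or 3 or any Sdc4-/- 12 h array (adjusted p up to 0.0831).

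**Figure D3:**
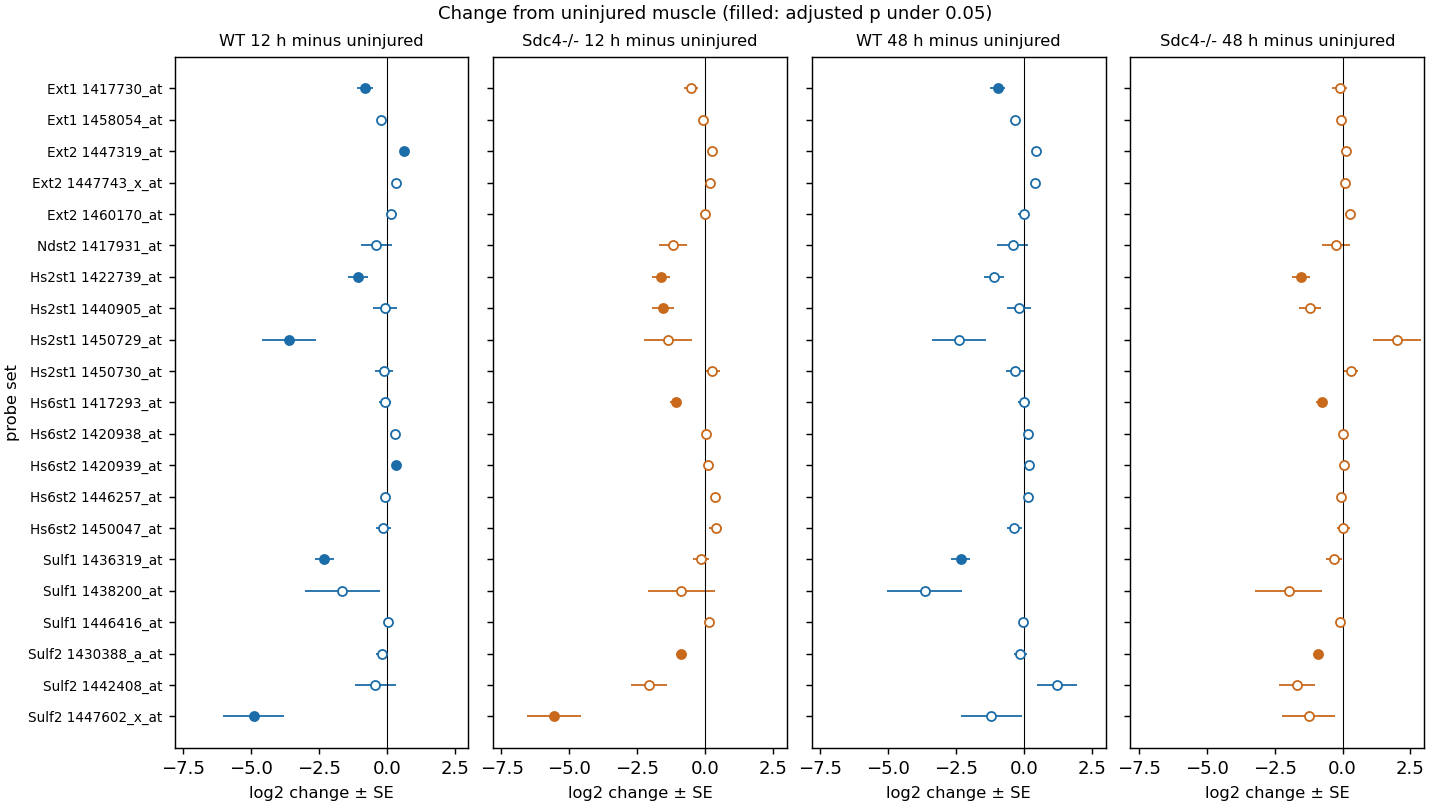
Log2 change from uninjured muscle (horizontal axis, point) with its SE (line) for each of the 21 probe sets, in wild type cells (blue) and Sdc4-/- cells (orange) at both times after injury; filled points have an adjusted p under 0.05. The longest falls were at Sulf2 1447602_x_at, by 4.90 in wild type and 5.58 in Sdc4-/- cells at 12 h.

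Calls were then counted over the 21 probe sets and set beside those over the whole array. In wild type cells at 12 h 2 probe sets rose and 5 fell (4 genes), where 23.3% of all probe sets on the array rose and 14.2% fell. At 48 h 0 rose and 2 fell in wild type cells, with 5.35% and 7.12% of all probe sets. Among Sdc4-/- cells 0 rose and 5 fell at 12 h, from 3 genes, where 1.26% of all rose and 5.15% fell. The 48 h count was 0 higher and 3 lower, against 2.18% and 2.31%. From 12 h to 48 h 1 rose and 0 fell in wild type cells (5.74% and 6.62% of all) and 2 rose and 0 fell in Sdc4-/- cells (5.28% and 0.703% of all). The comparisons share arrays, so these counts are not independent of each other.

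Between genotypes few members passed the test. In uninjured muscle 0 were higher and 1 lower in Sdc4-/- cells, beside 1.25% and 2.55% of all probe sets, and at 12 h 0 were higher and 1 lower, beside 5.47% and 11.9%. At 48 h limma called 0 in each direction, beside 3.61% and 1.46% of all, with 4 of the 21 at an unadjusted p under 0.05. For the difference in change, 1 was higher and 1 lower at 12 h (4.37% and 6.72% of all) and 1 higher and 0 lower at 48 h (2.92% and 1.17% of all).

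Other steps of the same pathway were described with 1 probe set a gene, the brightest. By that measure 1 member of 8 rose and 3 fell in wild type cells at 12 h, with a median change of -0.59, where 19.6% of all genes rose and 20.8% fell around a median of 0.09. At 48 h it was 0 and 1, with a median of -0.70, beside 5.47% and 9.39% of all genes and a median of 0.10. The Sdc4-/- figures were 0 and 2 at 12 h, median -0.98, beside 1.48% and 7.23% and a median of 0.04, and 0 and 1 at 48 h, median -0.17, beside 2.65% and 2.59% and a median of 0.02. The median over all genes is set largely by dim probe sets. Among the 9962 whose mean over the arrays reached 4, 398 rose and 4347 fell in wild type cells at 12 h, around a median of -1.43, and 334 rose and 1893 fell in Sdc4-/- cells at 12 h, around -0.575. At 48 h their medians were -0.193 and 0.206. The members' 12 h medians lay below the median of all genes in both genotypes. They include dim members, so they are not set against these brighter probe sets. Of the members' brightest probe sets, those of Ext1, Hs2st1 and Sulf2 reach a mean of 4. Their 12 h changes were -0.79, -3.61 and -4.90 in wild type cells and -0.53, -1.37 and -5.58 in Sdc4-/- cells.

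Among these lists the supply of building blocks had the lowest median in wild type cells at 12 h. Of 11 genes for sugar nucleotides and sulfate donors, 0 rose and 5 fell at 12 h, with a median of -1.70, where the probe sets whose mean reached 4 had a median of -1.43 and 4347 of 9962 fell. Ugp2, which makes UDP-glucose, the precursor of the chain's glucuronic acid, went from 8.50 and 8.72 to 4.79, 4.21 and 3.43 in wild type cells, by -4.47 (limma, adjusted p = 2.96e-05), and stood at 10.02, 8.99 and 10.37 at 48 h. It changed in Sdc4-/- cells by -0.61 at 12 h (limma, adjusted p = 0.437), and the 12 h changes of the genotypes differed by 3.86 (limma, adjusted p = 0.00259). Slc35a3, a Golgi transporter of UDP-N-acetylglucosamine, fell by 3.61 (limma, adjusted p = 0.000453) and was still down by 3.17 at 48 h (limma, adjusted p = 0.00335) in wild type cells. Papss2, which makes the sulfate donor PAPS, fell by 2.74 (limma, adjusted p = 0.00787). For the same list at 48 h in wild type cells 0 rose and 1 fell (median -1.07), and in Sdc4-/- cells 0 and 0 at 12 h (median -0.42) and 1 and 0 at 48 h (median 1.08). The shares of all genes were 5.47% and 9.39%, 1.48% and 7.23%, and 2.65% and 2.59% in that order.

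Linkage and initiation had 7 measured genes, of which 0 rose and 1 fell at 12 h in wild type cells, with a median of -0.00. Of all genes, 19.6% rose and 20.8% fell in that comparison. Extl2, a glycosyltransferase that acts on the linkage region, went from 6.77 and 6.38 to 3.50, 2.42 and 4.03, by -3.26 (limma, adjusted p = 0.0436). In the 11 other genes of polymerization and modification 1 rose and 2 fell at 12 h in wild type cells, 0 and 2 at 48 h. At 48 h 5.47% of all genes rose and 9.39% fell. Glce, the epimerase that turns glucuronic into iduronic acid, fell from 7.02 and 6.09 to 3.37, 2.79 and 2.73, by 3.59 (limma, adjusted p = 0.000707), and was down by 3.22 at 48 h (limma, adjusted p = 0.00439). Hs3st3b1, a 3-O-sulfotransferase, rose from 2.69 and 2.88 to 4.25, 4.14 and 3.87, by 1.30 (limma, adjusted p = 0.000539), to values within the raised background range of the wild type 12 h arrays, and Hs3st1, of the same family, fell by 0.52 between values near background (limma, adjusted p = 0.000113). In Sdc4-/- cells neither of these lists had a call at 12 h, where 1.48% of all genes rose and 7.23% fell. B4galt7, which adds the first galactose of the linkage, rose by 1.45 in these cells at 48 h (limma, adjusted p = 0.00966). In that comparison 1 of the 7 linkage genes and 0 of the 11 others rose, and 0 fell. Of all genes, 2.65% rose and 2.59% fell.

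Among lysosomal enzymes that break the chain down, Ids and Gusb fell at 12 h in both genotypes and rose from 12 h to 48 h. Ids, iduronate sulfatase, was at 10.27 and 9.41 in wild type cells from uninjured muscle, 2.98, 3.22 and 2.99 at 12 h and 6.31, 9.22 and 6.02 at 48 h. Its fall was 6.77 in wild type (limma, adjusted p = 0.000392) and 4.35 in Sdc4-/- cells (limma, adjusted p = 0.0134). Gusb, the beta-glucuronidase, fell by 3.14 (limma, adjusted p = 0.00214) and by 2.77 (limma, adjusted p = 0.00982), then stood 2.49 above uninjured muscle at 48 h in wild type cells (limma, adjusted p = 0.0208). Hpse2, which was placed on the wider heparan sulfate turnover list, rose by 1.01 in wild type cells at 12 h (limma, adjusted p = 0.000302). Its mean went from 2.60 to 3.62, and the 12 h value also lies within the background range of those arrays. Of the 9 genes of this list 1 rose and 2 fell at 12 h and 2 rose and 0 fell at 48 h in wild type cells, and 0 rose and 3 fell at 12 h and 0 and 1 at 48 h in Sdc4-/- cells. Beside these stand 19.6% and 20.8%, then 5.47% and 9.39% of all genes in wild type cells. The Sdc4-/- shares were 1.48% and 7.23%, then 2.65% and 2.59%.

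The related chains chondroitin and dermatan sulfate gave 3 higher and 7 lower of 16 genes at 12 h in wild type cells, around a median of -0.11, and 1 and 4 at 48 h. The Sdc4-/- count was 0 and 1 at both times. Of all genes 19.6% were higher and 20.8% lower at 12 h in wild type cells, and 5.47% and 9.39% at 48 h. The Sdc4-/- shares were 1.48% and 7.23% at 12 h and 2.65% and 2.59% at 48 h. Of the probe sets whose mean reached 4, 4347 of 9962 fell in wild type cells at 12 h. Chst15, a chondroitin sulfotransferase, fell by 3.38 in wild type cells (limma, adjusted p = 0.000189), and Ust and Chsy3, which modify and build these chains, rose by 1.71 (limma, adjusted p = 9.52e-05) and 0.89 (limma, adjusted p = 0.000574), to means of 4.33 and 3.84 that lie near the background of those arrays.

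**Figure D4:**
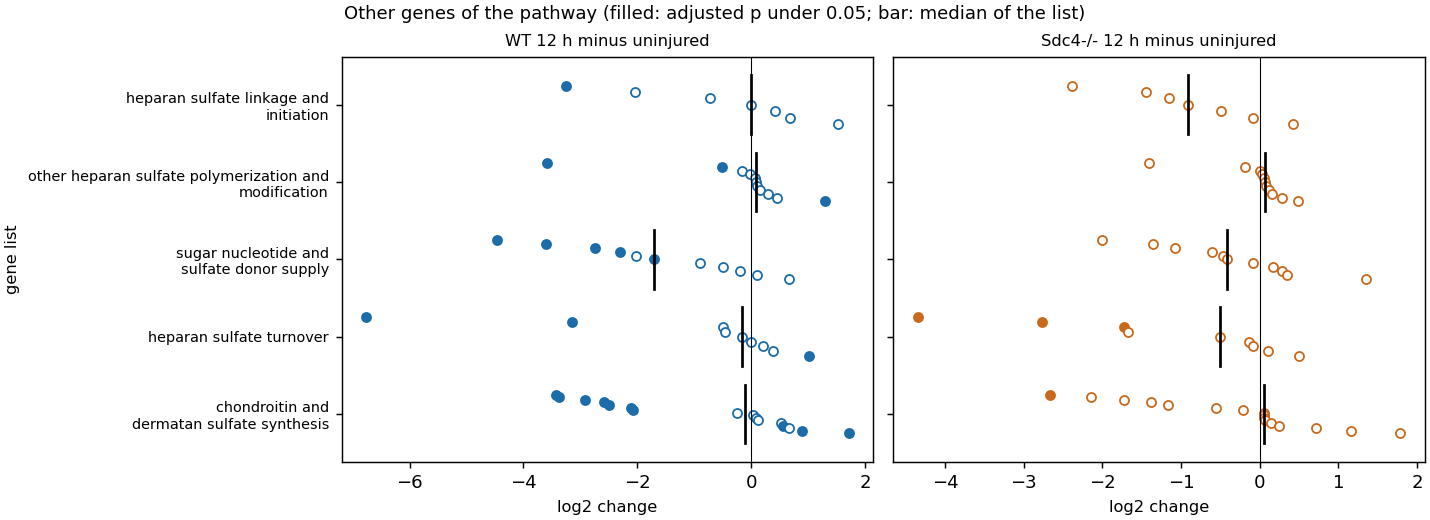
Log2 change at 12 h from uninjured muscle (horizontal axis) for each gene of 5 lists, with 1 probe set a gene, in wild type (blue) and Sdc4-/- cells (orange); the black bar is the median of the list and filled points have an adjusted p under 0.05. The donor supply list has the lowest wild type median, -1.70, against -0.42 in Sdc4-/- cells, where linkage and initiation is lowest at -0.91. Probe sets of the array with a mean of at least 4 had a wild type median of -1.43. The 2 horizontal axes differ in range.

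Among 6279 genes, those whose pattern over the 17 arrays was most like that of a member were given by Pearson correlation, as a description of arrays that share groups and array effects. For Sulf2 they were Pepd (0.97), Lmo2 (0.95) and Fcrls (0.95), and for Sulf1 (1438200_at) Mmp2 (0.92), Serping1 (0.86) and Myh10 (0.85). Hs2st1 had Eif3m (0.96), Tm2d1 (0.92) and Ptpra (0.90). The nearest to Ext1 was Ezh1 (0.90), followed by Kif16b (0.87) and Eogt (0.85), and the nearest to Ndst2 was Sephs1 (0.90), before 2700097O09Rik (0.87) and Lemd2 (0.84).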

How the data were processed

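Values were the log2 GCRMA intensities deposited by the authors for 18 Affymetrix MOE430v2 arrays. RNA went through 2 rounds of T7 amplification and GCOS gave the intensities; program versions are not given in the sources used here. Probe sets were named from the platform annotation: 34958 had 1 symbol, 932 several and 9211 none. Limma 3.58.1 (R 4.3.3) fitted the 6 groups over 17 arrays, and p-values were adjusted by Benjamini-Hochberg over 45101 probe sets, with a threshold of 0.05. The fit was tested on simulated data. A gene with several probe sets was represented by the one with the highest mean; each list named its called genes with the smallest adjusted p at 12 h (up to 3) and 48 h (up to 2) in wild type cells, and genes outside this rule (B4galt7) were chosen after their values were seen. Lists matched 7 of 8, 11 of 12, 11 of 11, 9 of 10 and 16 of 16 genes. Members and lists were chosen with earlier results of these data known. Nothing in the labels says that arrays of a group came from separate animals, and the tests thus cover only sample spread, which may be technical. Alternatives were all 18 arrays, fewer groups, other moderation, normalization and filters, array weights, a replicate block and leaving out each array.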

Additional observations from a re-analysis of the deposited data

Results flagged for a closer look

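For 2 genes the change after injury differed between the genotypes by the test of that difference. Hs6st1 at 1417293_at differed by -1.02 at 12 h (limma, adjusted p = 0.044), with all 6 group means under the background level, and the call was lost in 15 of 25 alternatives, among them all 18 arrays (adjusted p = 0.0776). Sulf1 at 1436319_at differed by 2.14 at 12 h (limma, adjusted p = 0.0111) and by 2.02 at 48 h (limma, adjusted p = 0.0289), and with all 18 arrays neither was called (1.37, adjusted p = 0.375, and 1.25, adjusted p = 0.712). Genotype and strain background cannot be told apart in these differences.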

How the results depend on the processing

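Over the 21 probe sets, 11 comparisons and all alternatives, 5561 of 5808 changes stayed on their side of the threshold (uncalled changes near 0 could change sign), 173 lost a call, 73 gained one and 1 called change reversed. That was Ext1 1417730_at at 12 h in wild type cells, 0.37 after a further quantile normalization (adjusted p = 0.429); the cause was not tested. The counts of called probe sets moved further, and the causes were not tested. For the processing alternatives only the larger moves in a count are listed, so counts not listed may still differ from the main ones. With all 18 arrays, for example, the Sdc4-/- 12 h call of Hs2st1 1440905_at was lost. In the order 12 h minus uninjured, 48 h minus uninjured and 48 h minus 12 h, wild type counts of 7, 2 and 1 became 2, 0 and 0 with all 18 arrays, and Sdc4-/- counts of 5, 3 and 2 became 1 for the last. Fitting only the groups compared gave 2 and 0 for the first and last wild type counts, 2 and 0 for the first 2 Sdc4-/- counts, and 0 for the genotype difference in uninjured muscle and at 12 h and for both differences in change. All 18 arrays gave 0 for the genotype difference at 12 h and 0 for both differences in change. Further quantile normalization gave 4 (wild type 12 h), 0 (Sdc4-/- 48 h minus 12 h) and 1 (difference in 12 h change). A 75th percentile shift gave 6 (wild type 48 h), 13 (Sdc4-/- 12 h), 5 (Sdc4-/- 48 h minus 12 h), 0 and 4 (genotype at 12 h and 48 h) and 1 (difference in 12 h change). A floor of 4 on the mean, which leaves few members, gave 2 and 0 in wild type cells, 1 and 0 in Sdc4-/- cells, 0, 0 and 1 between genotypes at the 3 times and 0 for both differences in change. Array weights gave 4, 6 and 0 in wild type cells, 1 for the genotype difference at 48 h and 1 for the difference in 12 h change. A trended, robust fit gave 1 for wild type 48 h; no moderation gave 2 and 1 for 48 h minus 12 h in wild type and Sdc4-/- cells. The labels do not say whether replicate numbers pair the samples. Same-numbered samples had correlations of -0.133 to 0.172 (40 pairs, 2 over 0.1), and different-numbered ones of -0.19 to 0.19 (80 pairs, 3 over 0.1). In groups this small such values cannot decide whether samples were paired. With the replicate numbers as a block the counts were 1 (wild type 48 h), 1 (Sdc4-/- 48 h minus 12 h), 1 and 0 (differences in 12 h and 48 h change). Leaving out 1 array at a time gave 4 to 8, 1 to 4 and 0 to 2 in wild type cells, 3 to 6, 0 to 4 and 0 to 2 in Sdc4-/- cells, 1 to 3, 0 to 1 and 0 to 1 between genotypes, and 1 to 3 and 0 to 2 for the differences in change. Of the 21 probe sets, 12 stayed under the background level, which limits what their changes can show.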
